A study of Mus musculus with 12 samples.

Results

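Expression of 9 genes of myelin and of the oligodendrocyte lineage was analysed across cortex and cerebellum of mice modelling spinocerebellar ataxia type 1 (SCA1). The genes were taken by symbol from the table of normalized counts. No cutoff on a measured value was applied, but earlier results of these data were known when they were chosen. Mbp, Mog, Mag, Mobp and Cnp encode proteins of the myelin sheath. Olig2, Sox10 and Myrf encode transcription factors of the lineage, and Pdgfra encodes the growth factor receptor of its precursors. All 9 were among the 15759 entries of the table, and all 9 were among the 15369 genes that had a mean of at least 10 normalized counts and were tested. SCA1 KI mice carried a knock-in Atxn1 allele with 154 glutamine codons, expressed from the gene's own locus in every cell that uses it, beside an allele with 2 (Atxn1 154Q/2Q). Their WT littermates carried no expanded allele. All mice were C57BL/6J and 12 weeks old, and their cortex and cerebellum were macrodissected, which gave 4 groups of 3 libraries: cortex WT (libraries B, C and D), cortex SCA1 KI (A, E and F), cerebellum WT (2, 4 and 6) and cerebellum SCA1 KI (1, 3 and 5). The labels name male mice, whereas the methods of the study name both sexes. The study took the cerebellar libraries from earlier work of the same laboratory, so region and sequencing experiment cannot be told apart.

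Oligodendrocytes wrap axons of the central nervous system in myelin, a stack of membrane that speeds conduction. They arise throughout life from precursors that carry the PDGF receptor alpha and divide in response to its ligand. Olig2 and Sox10 specify and maintain the lineage, Myrf switches on the myelin programme as a precursor matures, and the myelin proteins then become some of the most abundant products of the cell. Whole tissue was sequenced here, so that fewer cells of a type and less RNA per cell cannot be told apart in any of the values below.

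Between 29520855 and 51311309 reads per library lay on genes. The thinnest value of any of the 9 genes rested on 506 reads (Olig2). The regions carried their own neuronal markers, with the summed level of 8 genes of cerebellar neurons at 241060.4 to 325709 normalized counts in the cerebellum WT libraries and 8445 to 10511 in the cortex WT libraries. Of 7 genes of Schwann cells, which make the myelin of peripheral nerve, 4 were in the table. The group means of Prx were 19.9 to 22.0 normalized counts and those of Ncmap 23.5 to 27.4 in the cortex and 47.9 to 63.5 in the cerebellum. Egr2 and Pmp22, which are used in the brain as well, had means of 131.4 to 462 and of 775.5 to 853 in the cortex, and of 2.96 to 7.16 and of 1579 to 1600.5 in the cerebellum. Genes of neighbouring brain tissue differed between the genotypes in both regions, and these values are given beside the results they accompany. A gene was counted as changed where limma, fitted on log2(normalized count + 1) with all 12 libraries, gave a Benjamini-Hochberg adjusted p under 0.05 and an absolute log2 fold change (LFC) over 0.25. For a difference between the regions in the genotype effect only the adjusted p was used.

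The 9 genes are spread over 9 chromosomes of GRCm38 (GENCODE vM21). Mog lies on chromosome 17 (37010743 to 37023398, minus strand), Mag on 7 (30899176 to 30914873, minus), Mobp on 9 (120149707 to 120181484, plus), Cnp on 11 (100574904 to 100591729, plus), Olig2 on 16 (91225457 to 91228677, plus), Sox10 on 15 (79154908 to 79165240, minus), Myrf on 19 (10208272 to 10240748, minus), Pdgfra on 5 (75152292 to 75198215, plus) and Mbp on 18. Exons of other annotated genes overlapped 1.15% of the exon bases of Mobp, 4.23% of those of Cnp (Dnajc7, opposite strand) and 6.50% of those of Pdgfra. Whether the counting used strand is not given in the sources used here, so a small share of the reads of these 3 genes could belong to the neighbours.

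The bases just before the start of the annotated gene are shown for 4 myelin genes whose levels moved together across the libraries and for Pdgfra, which moved less closely with them. The sequences are RefSeq promoters on GRCm38.p6, on the strand of the gene, and stop before its first annotated base. Of the 9 genes, 6 had such an entry. Capitals mark matches to ACAAAG or ACAATG, letters that SOX proteins such as Sox10 recognise, to CTGGCAC or CTGGTAC, letters that Myrf recognises, or to CAGCTG, a form of the E-box that Olig2 recognises. A match on the opposite strand appears as its reverse complement. The regions are chr17:37023399-37023648 (Mog, minus strand), chr7:30914874-30915113 (Mag, minus), chr9:120149492-120149706 (Mobp, plus), chr11:100574689-100574903 (Cnp, plus) and chr5:75152001-75152250 (Pdgfra, plus).
Mog: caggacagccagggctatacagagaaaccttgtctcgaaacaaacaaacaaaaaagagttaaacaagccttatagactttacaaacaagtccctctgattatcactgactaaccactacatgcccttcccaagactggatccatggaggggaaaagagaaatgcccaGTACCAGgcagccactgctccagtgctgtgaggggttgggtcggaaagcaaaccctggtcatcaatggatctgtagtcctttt
Mag: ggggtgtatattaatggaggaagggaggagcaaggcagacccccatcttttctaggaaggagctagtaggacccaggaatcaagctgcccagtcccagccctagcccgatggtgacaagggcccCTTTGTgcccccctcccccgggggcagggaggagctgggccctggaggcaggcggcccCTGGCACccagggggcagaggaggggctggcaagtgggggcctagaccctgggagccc
Mobp: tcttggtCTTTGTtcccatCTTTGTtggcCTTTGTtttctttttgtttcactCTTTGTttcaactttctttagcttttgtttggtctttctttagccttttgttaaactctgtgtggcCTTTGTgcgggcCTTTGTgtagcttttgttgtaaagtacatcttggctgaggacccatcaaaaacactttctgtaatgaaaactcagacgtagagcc
Cnp: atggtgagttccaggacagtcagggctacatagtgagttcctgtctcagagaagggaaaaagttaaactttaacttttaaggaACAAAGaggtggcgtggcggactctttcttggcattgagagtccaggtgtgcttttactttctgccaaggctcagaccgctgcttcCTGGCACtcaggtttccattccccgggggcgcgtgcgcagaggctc
Pdgfra: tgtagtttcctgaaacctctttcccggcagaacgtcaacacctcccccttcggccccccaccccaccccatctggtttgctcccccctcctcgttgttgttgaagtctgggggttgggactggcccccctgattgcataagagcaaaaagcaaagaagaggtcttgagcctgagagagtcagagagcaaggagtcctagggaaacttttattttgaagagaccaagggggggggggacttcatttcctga
ACAAAG was found before the start of Mag, Mobp and Cnp, with 6 matches before Mobp, against 16.5% of 27025 mouse promoters holding it on either strand within 250 bases before the RefSeq start. CTGGCAC was found before Mag and Cnp (4.14% of all promoters) and CTGGTAC before Mog (1.80%). ACAATG (11.0%) and CAGCTG (12.8%) were in none of the stretches shown. The entry of Olig2, which is not shown, held 1 ACAATG match within 250 bases before the RefSeq start. No motif searched was found in the stretch shown for Pdgfra. These matches describe letters and not binding.

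The 5 genes of the myelin sheath were higher in cerebellum than in cortex in every library comparison. Mbp, which encodes myelin basic protein and compacts the inner faces of the membrane, read 103385, 63379 and 74212 normalized counts in cerebellum WT libraries 2, 4 and 6 and 60859, 57893 and 55622 in cerebellum SCA1 KI libraries 1, 3 and 5. In the cortex Mbp read 54201, 32242 and 31167 in WT libraries B, C and D and 33752, 40090.0 and 37568 in SCA1 KI libraries A, E and F. Every cerebellar library lay above every cortical one, 1 library of each WT group stood high, and the cerebellar genotypes did not overlap.

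Mog, a minor protein of the outermost myelin layer, read 3655, 2568 and 2798 in cerebellum WT and 1979, 2105 and 2221 in cerebellum SCA1 KI. In the cortex it read 1866, 1199 and 1272 in WT and 1462, 1381 and 1563 in SCA1 KI. Here too the cerebellar libraries all exceeded the cortical ones, and the high libraries were again 2 and B. Mag, which sits on the myelin face next to the axon, read 8281, 6444 and 7279.9 in cerebellum WT and 6389, 5851 and 5968 in cerebellum SCA1 KI. Its cortical values were 4819.8, 3046 and 2755 in WT and 3185, 3536 and 3811 in SCA1 KI. The cerebellar genotypes were set apart by WT library 4 and SCA1 KI library 1, which lay close to each other.

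Mobp, a small basic protein of compact myelin, read 11295, 7758 and 8610.1 in cerebellum WT and 5990.3, 6579 and 5965 in cerebellum SCA1 KI. In the cortex Mobp read 5767, 3512 and 3281 in WT and 3568, 4234 and 4122 in SCA1 KI. The lowest WT cerebellum library stood clearly above the highest SCA1 KI one. Cnp, a phosphodiesterase of the cytoplasmic channels of myelin, read 16678, 14579.5 and 15952 in cerebellum WT and 13139, 12959 and 13286 in cerebellum SCA1 KI. Its cortical values were 9048, 6719.6 and 6266 in WT and 6745, 7147 and 7990.2 in SCA1 KI. In the cerebellum Cnp had the tightest groups of the 5, and its cerebellar genotypes did not overlap either.

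The 3 transcription factors did not share 1 pattern. Myrf followed the myelin genes, with 2797, 2127 and 2316 in cerebellum WT and 1853, 1813 and 1764 in cerebellum SCA1 KI. In the cortex Myrf read 1747, 1009.8 and 890.3 in WT and 938, 1190.2 and 1274 in SCA1 KI. The high WT cortex library, B, came close to cerebellum SCA1 KI. Sox10 read 1550.2, 1214 and 1289 in cerebellum WT and 1072, 1003 and 1082 in cerebellum SCA1 KI. In the cortex it read 1351, 891 and 804 in WT and 918, 1022 and 1096 in SCA1 KI, and its cortical and cerebellar libraries overlapped. Olig2 read 898, 618 and 701 in cerebellum WT, 626, 583 and 652 in cerebellum SCA1 KI, 1012, 862 and 912 in cortex WT and 706, 744 and 902 in cortex SCA1 KI. It leaned the other way, towards the cortex, with cerebellum WT library 2 reaching into the cortical range.

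Pdgfra, the marker of the precursors, was highest in the cortex. It read 2422, 2239 and 2360.1 in WT cortex libraries B, C and D and 1796, 2106 and 2147 in SCA1 KI libraries A, E and F. In the cerebellum it read 1373, 1132 and 1101 in WT and 1058, 1037 and 1009.8 in SCA1 KI. The lowest cortical library lay above the highest cerebellar one, and within each region the SCA1 KI libraries lay below the WT libraries without overlap.

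**Figure D1:**
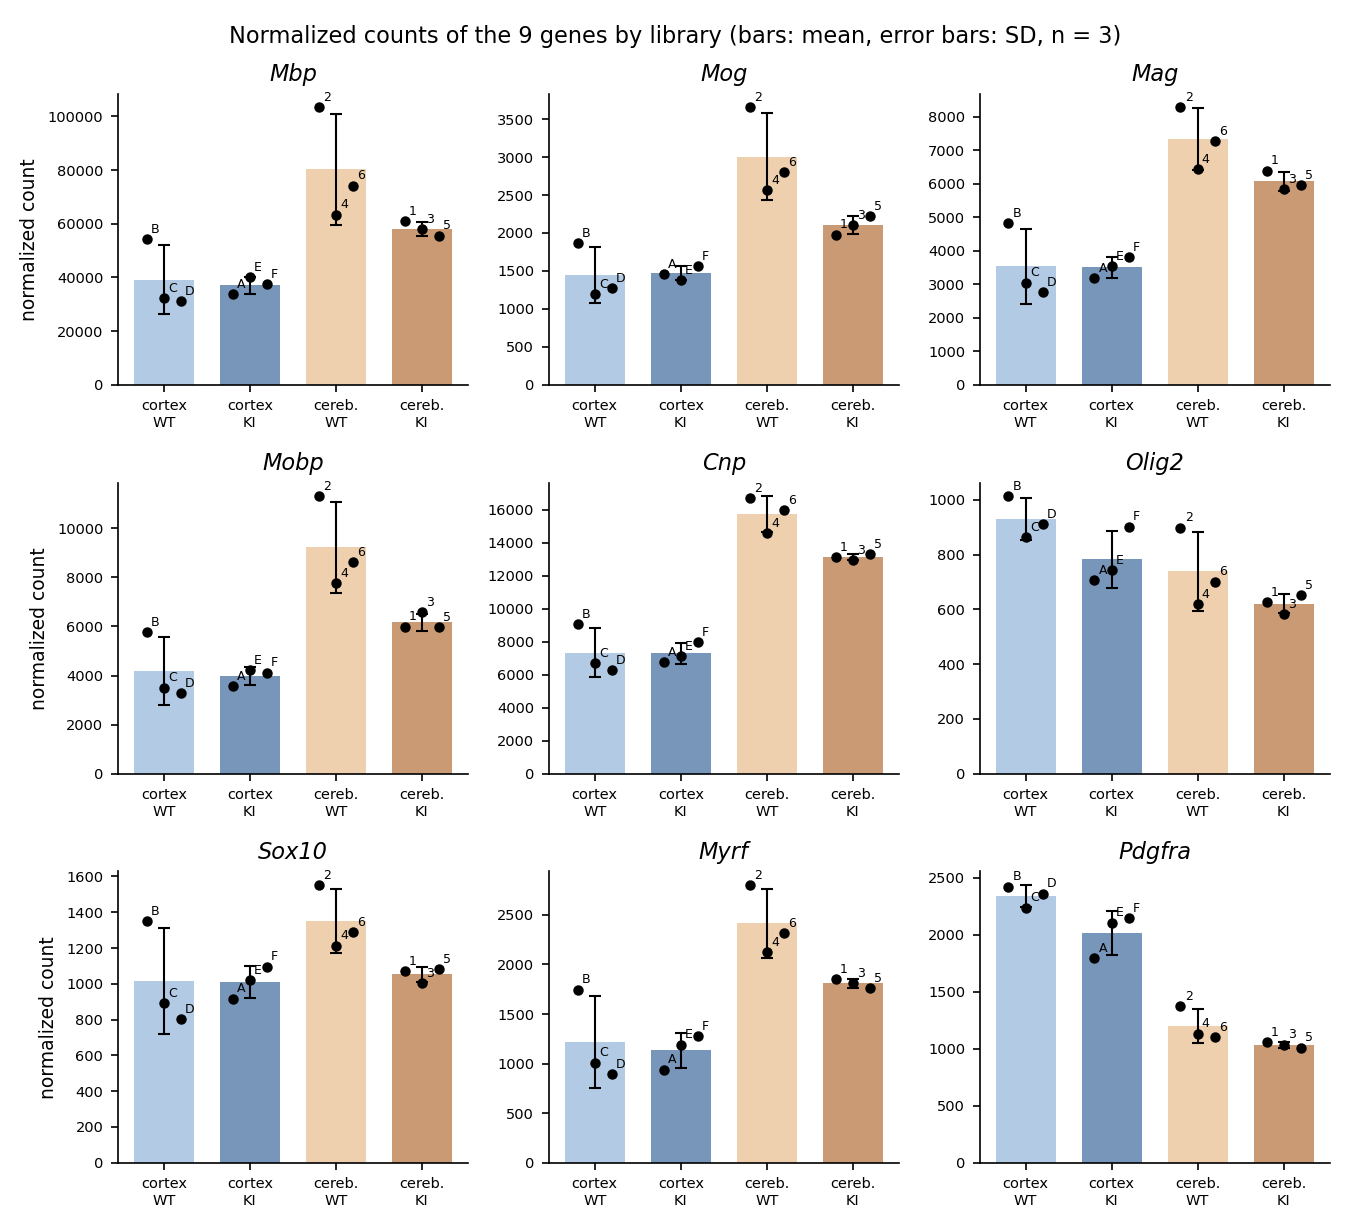
Normalized counts (vertical axis, linear, from 0) of the 9 genes in each of the 4 groups. Points are single libraries with their names, bars are group means and error bars SD (n = 3 each). Libraries B and 2 are the highest points of their groups in every panel, and Olig2 and Pdgfra stand higher in cortex where the myelin genes stand higher in cerebellum.

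Compared per kilobase of exon, Mbp was the most abundant of the 9 in every group, at 9485 ± 2443 (SD, n = 3) normalized counts per kilobase in cerebellum WT and 4629 ± 1535 in cortex WT. Cnp followed at 4324 ± 293 and 2018 ± 410.1, without overlap with Mbp. Mag, Mog and Mobp came next, between 1346 ± 269.6 and 1801 ± 226 in cerebellum WT and between 611 ± 200.5 and 869 ± 274 in cortex WT. Mag and Mog overlapped in 3 of the 4 groups and Mog and Mobp in both WT groups, and Mobp came ahead of Mog when the longest transcript was used for length. The receptor and the transcription factors lay lowest. In cortex WT Olig2 (367 ± 30.2) and Sox10 (333 ± 96.4) overlapped, and were followed by Pdgfra (234 ± 9.29) and Myrf (142 ± 54.2). In cerebellum WT Pdgfra was last, at 119.9 ± 14.9 per kilobase, below Sox10 (443 ± 57.8), Olig2 (292 ± 56.9) and Myrf (282 ± 40.4), of which Olig2 and Myrf overlapped.

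The first comparison asked how the lineage differed between the regions. In WT mice all 9 genes differed between cortex and cerebellum, 7 lower and 2 higher in the cortex, in a comparison in which 61.7% of all genes tested passed (30.7% lower, 31.0% higher). Mobp had the largest difference, 4187 ± 1373 (SD, n = 3) in the cortex against 9221 ± 1846 in the cerebellum, an LFC of −1.17 (standard error 0.18, limma adjusted p = 8.9e-05). Cnp (−1.12), Mag (−1.09), Mog (−1.07) and Mbp (−1.05) had LFCs of nearly the same size, which places each at about the same ratio of cerebellum to cortex, 2.08-fold for Mbp and 2.17-fold for Cnp. The adjusted p of these 4 genes in limma ran from 1.71e-06 to 0.000406.

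Among the transcription factors Myrf was lower in the cortex to the extent of the myelin genes, with an LFC of −1.04 (limma adjusted p = 0.000504). Sox10 was lower in the cortex by less, with an LFC of −0.44 (standard error 0.16, limma adjusted p = 0.0251). Olig2 was higher in the cortex, with 929 ± 76.4 (SD, n = 3) against 739 ± 144 and an LFC of 0.34 (limma adjusted p = 0.0328). Pdgfra had the larger difference of the 2 higher genes, with 2340.2 ± 93.1 (SD, n = 3) in the cortex against 1202 ± 149 in the cerebellum, an LFC of 0.97 (limma adjusted p = 7.52e-07), or 1.96-fold. The WT libraries of the regions did not overlap for 6 of the 7 lower genes, the exception being Sox10, against 34.8% of all genes not overlapping in that direction. They did not overlap for Pdgfra but did for Olig2, where 35.1% of all genes lay wholly higher. Sox10 missed the threshold without cerebellum WT library 2 or cortex WT library C or D, and Olig2 without cerebellum WT library 4 or 6 or cortex WT library B or D. edgeR's quasi-likelihood test did not call Olig2 (LFC 0.30, adjusted p = 0.058), while DESeq2 did (0.33, adjusted p = 0.0332). The count of genes that passed was 7 to 9 when 1 library was left out, with LFCs of −0.67 to −0.29 for Sox10 and 0.22 to 0.49 for Olig2.

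**Figure D2:**
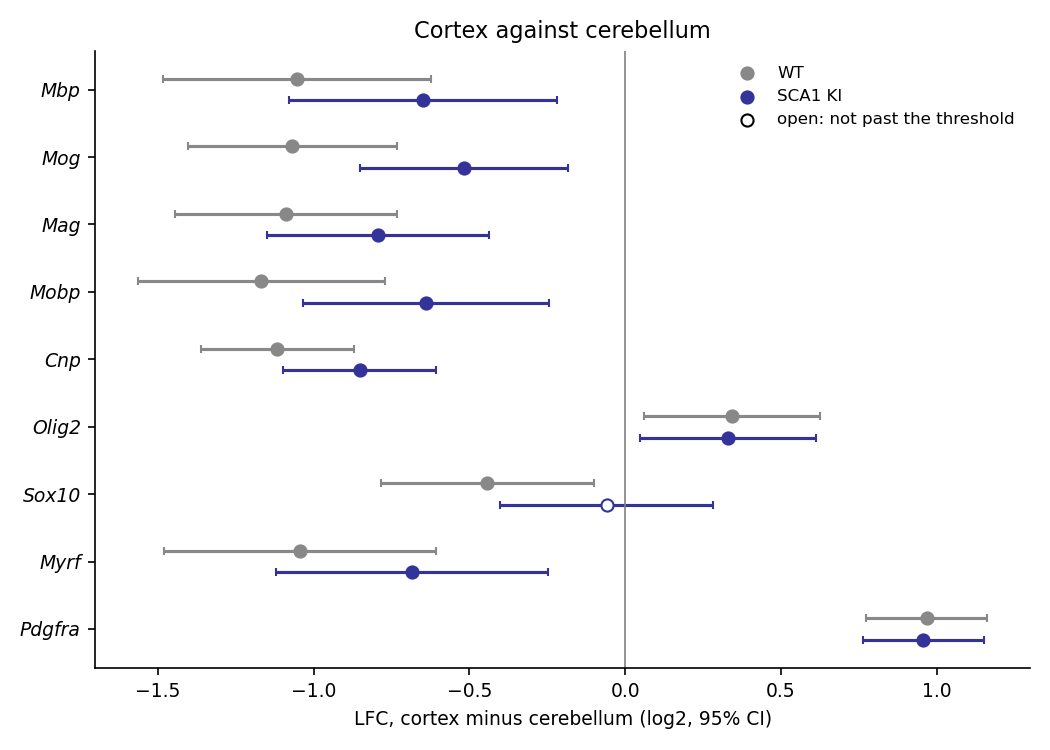
LFC of cortex against cerebellum (horizontal axis, log2, bars 95% confidence intervals from limma) for the 9 genes, in WT in grey and SCA1 KI in blue. The myelin genes and Myrf lie near −1 in WT and closer to 0 in SCA1 KI, and Olig2 and Pdgfra lie above 0 in both genotypes.

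In SCA1 KI mice 8 of the 9 genes differed between the regions, against 62.4% of all genes tested (30.5% lower, 32.0% higher). Mbp (−0.65), Mog (−0.52), Mag (−0.79), Mobp (−0.64), Cnp (−0.85) and Myrf (−0.69) were lower in the cortex, with limma adjusted p of 2.02e-05 to 0.0107. Olig2 (0.33) and Pdgfra (0.96) were higher there by almost the amount seen in WT. The libraries of the regions were fully separated for these 8 genes, against 36.5% of all genes lower and 37.8% higher in this way. The median LFC over the 9 genes was −1.05 in WT and −0.64 in SCA1 KI, against 0.00 and 0.01 over all genes. Sox10 had an LFC of −0.060 (95% confidence interval −0.40 to 0.28, limma adjusted p = 0.753) and did not pass, and it passed at −0.38 (adjusted p = 0.0345) when the dependence of each library on length and GC content was taken out. Olig2 in turn missed the threshold with that dependence taken out, at 0.19 in WT and 0.16 in SCA1 KI, and in SCA1 KI also without cerebellum library 1, 3 or 5 or cortex library E or F (LFC 0.23 to 0.40 over the fits that left out 1 library). Where an absolute LFC over 1 was asked for, 6 genes passed in WT and none of the 9 in SCA1 KI.

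The balance between myelin transcripts and Pdgfra within single libraries differed between the regions. Other precursor genes did not share 1 direction between the regions. Of 18 in a list described below, 7 were higher and 7 lower in cortex WT than in cerebellum WT. The shares over all genes were 31.0% and 30.7%. The ratio of Mbp to Pdgfra normalized counts was 13.2 to 22.4 in cortex WT and 17.5 to 19.0 in cortex SCA1 KI, against 56.0 to 75.3 in cerebellum WT and 55.1 to 57.5 in cerebellum SCA1 KI. No cortical library reached a cerebellar one, while within each region the genotypes overlapped. The ratio of Myrf to Sox10, the factor of maturation to the factor of the whole lineage, was 1.02 to 1.29 over the cortical libraries and 1.63 to 1.81 over the cerebellar ones. The Mog to Pdgfra ratio was 1.87 to 2.20 in cerebellum SCA1 KI and 2.27 to 2.66 in cerebellum WT, so that for this pair the cerebellar genotypes did not overlap. It was 0.656 to 0.814 in cortex SCA1 KI and 0.536 to 0.770 in cortex WT, where they did.

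The second comparison asked whether the lineage differed between SCA1 KI and WT in the cerebellum, the region in which SCA1 is best known. All 9 genes had lower means in SCA1 KI mice, and none of the 9 passed the threshold, in a comparison in which 5.36% of all genes passed (4.44% lower, 0.917% higher). Mog came nearest, with 2102 ± 121 (SD, n = 3) in SCA1 KI against 3007 ± 573 in WT and an LFC of −0.50 (standard error 0.15, limma adjusted p = 0.0883). Mobp had the largest LFC, −0.56 (95% confidence interval −0.96 to −0.17, limma adjusted p = 0.108), with 6178 ± 348 (SD, n = 3) in SCA1 KI against 9221 ± 1846 in WT.

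The LFC of Mbp was −0.44 (limma adjusted p = 0.277), that of Myrf −0.41 (0.332) and that of Sox10 −0.35 (0.271). Mag (−0.27, limma adjusted p = 0.461), Cnp (−0.26, 0.255), Olig2 (−0.24, 0.392) and Pdgfra (−0.21, 0.248) had smaller LFCs. For 8 of the 9 genes, all but Olig2, SCA1 KI and WT libraries were fully separated, whereas 17.5% of all genes lay wholly lower in SCA1 KI. At an unadjusted p under 0.05 in limma 6 of the 9 genes were lower, against 11.3% of all genes. An LFC below 0 in all 9 compares with 51.3% of all genes, and their median LFC of −0.35 with one of −0.01. The 9 genes share libraries and, in part, cells, so these counts do not rest on 9 separate observations.

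Which of the 9 passed depended on the fit. edgeR's quasi-likelihood test on the recovered reads called none of them, with 5.63% of all genes called, and DESeq2 called Mog (LFC −0.52, adjusted p = 0.0205) and Mobp (−0.58, adjusted p = 0.0265), with 7.48% of all genes called. A limma fit of the cerebellum alone called Mobp (adjusted p = 0.0457), Cnp (0.0361) and Myrf (0.0483), with 5.45% of all genes called. The same 2 genes as in DESeq2, Mog and Mobp, passed in limma when cortex WT library B was left out (adjusted p = 0.0227 and 0.0183, 5.14% of all genes called), with their LFCs unchanged. Without cerebellum WT library 2 the LFC of Mbp was −0.24, that of Mog −0.35, that of Mobp −0.41 and that of Olig2 −0.09, all 9 remained below 0, and none passed. With both of these libraries left out, an alternative chosen after seeing the data, Mog (−0.35, adjusted p = 0.0311) and Mobp (−0.41, adjusted p = 0.0255) passed and 3.68% of all genes did.

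**Figure D3:**
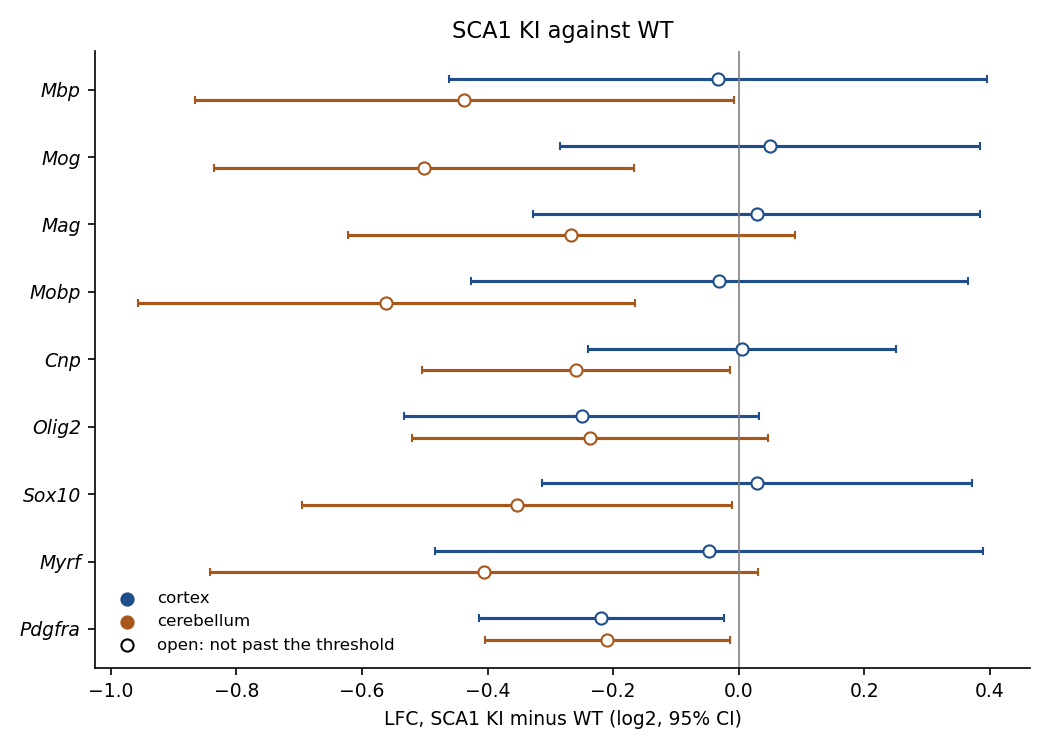
LFC of SCA1 KI against WT (horizontal axis, log2, bars 95% confidence intervals from limma) for the 9 genes in cortex in blue and cerebellum in brown. Open points did not pass the threshold. The cerebellar values all lie below 0, between −0.56 and −0.21, while the cortical values lie between −0.048 and 0.05 except those of Olig2 and Pdgfra.

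Several markers of brain tissue outside the cerebellum moved with genotype as well. The summed level of 10 genes of thalamus, midbrain and brainstem was 1592.8 to 3055 normalized counts in cerebellum WT libraries, highest in library 2, and 855 to 1013.6 in the SCA1 KI ones. Of its 9 tested genes 5 were lower in SCA1 KI: Shox2, Lhx9, Pou4f1, Tal1 and Gata3, with LFCs from −5.46 to −1.79, against 4.44% of all genes lower. The mean of Shox2 was 171.6 in WT and 4.63 in SCA1 KI. Slc6a5, also in the list, had cerebellar means of 863 in WT and 744 in SCA1 KI (LFC −0.17, limma adjusted p = 0.883). It made up most of the SCA1 KI sums. In the cortex its means were 3.46 in WT and 5.70 in SCA1 KI, so the cerebellar sums do not measure outside tissue alone. Library 2 had the lowest summed level of the 8 genes of cerebellar neurons, 241060 against 325709 in library 4 and 306999 in library 6. In cerebellum SCA1 KI these sums were 276799 to 280966. The part of these markers in the values of the myelin genes was not tested. Of 8 astrocyte genes 2 were lower (Aldoc and Aldh1l1), against the same 4.44%. Their summed level over all 8 was 229093 to 245128 in WT and 191055 to 195357 in SCA1 KI. A large part of that difference lay in Aldoc, with means of 64069 in WT and 41080 in SCA1 KI. All 8 LFCs were below 0 (median −0.30), with those of Slc1a3 (−0.019) and S100b (−0.007) nearest to it.

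In the cortex none of the 9 genes passed the threshold between the genotypes, in a comparison in which 15.6% of all genes passed (10.8% lower, 4.82% higher). The 5 myelin genes had LFCs of −0.033 (Mbp), 0.050 (Mog), 0.029 (Mag), −0.031 (Mobp) and 0.005 (Cnp). The 95% confidence interval of Mbp was −0.46 to 0.40 and that of Cnp −0.24 to 0.25. Both intervals included 0, and these LFCs were estimated no more closely than these ranges. Sox10 (0.029) and Myrf (−0.048, 95% confidence interval −0.48 to 0.39) were likewise near 0. The limma adjusted p of these 7 genes lay between 0.864 and 0.981.

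Pdgfra and Olig2 had lower LFCs than the other 7. The mean of Pdgfra was 2340.2 ± 93.1 (SD, n = 3) in WT and 2016 ± 192 in SCA1 KI, an LFC of −0.22 (95% confidence interval −0.41 to −0.023) with an unadjusted p of 0.0311 and a limma adjusted p of 0.12 that did not pass. It was the only member at an unadjusted p under 0.05 in limma and the only one whose cortical genotypes did not overlap, against 18.1% and 18.0% of all genes lower by these measures. Olig2 had an LFC of −0.25 (95% confidence interval −0.53 to 0.033, limma adjusted p = 0.22). Over the 9 genes 5 LFCs lay below 0, against 50.5% of all genes, with a median of −0.03. edgeR and DESeq2 also called none of the 9 in the cortex, nor did any other alternative.

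The cortical values of the myelin genes depended on WT library B. Without it the LFCs of Mbp, Mog, Mag, Mobp, Cnp, Sox10 and Myrf were 0.22 (Mobp) to 0.27 (Mag) except for Cnp at 0.17, all above 0, with limma adjusted p of 0.107 to 0.388. Library B also carried more striatal and choroid plexus transcripts than the other WT cortices. The summed level of 6 striatal genes was 16083 in B against 7661 and 9122 in C and D, and 5374 to 8859 in cortex SCA1 KI, and that of 6 choroid plexus genes was 1717 in B against 245 and 269, and 253 to 393 in cortex SCA1 KI. None of these genes was at 0 in any group throughout. The part of that tissue in the myelin values of library B was not tested.

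The thalamus, midbrain and brainstem list went in the opposite direction from the cerebellum, with a summed level of 169 to 228 in cortex WT and 886 to 1629 in cortex SCA1 KI. Library B did not stand out in it, at 227 against 169 in C and 228 in D. Of its 9 tested genes 4 were higher in SCA1 KI (Shox2, Lhx9, Pou4f1 and Tal1), against 4.82% of all genes, and 3 of its 10 genes were at 0 in every WT cortex library. Its part in the cortical values of the 9 genes was not tested.

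The third comparison asked whether the genotype difference itself differed between the regions. None of the 9 genes passed, and 8.15% of all genes did (4.89% lower, 3.26% higher). Only Mog had an unadjusted p under 0.05, and neither edgeR (8.42% of all genes called) nor DESeq2 (11.4%) called any of the 9. The median over the 9 genes was 0.36, against 0.01 over all genes. The difference of the LFCs, cortex minus cerebellum, was 0.55 for Mog (95% confidence interval 0.078 to 1.02, limma adjusted p = 0.161), 0.53 for Mobp (adjusted p = 0.264) and 0.40 for Mbp (adjusted p = 0.457). Sox10 (0.38), Myrf (0.36), Mag (0.29) and Cnp (0.26) lay above 0 as well, and Olig2 (−0.013) and Pdgfra (−0.010) just below it. A difference between the regions in the genotype effect was therefore not shown for any of the 9 in the fit of all libraries. Without cortex WT library B, 5 of the 9 passed, namely Mog (0.75, limma adjusted p = 0.0196), Mag (0.54, 0.039), Mobp (0.78, 0.0213), Cnp (0.42, 0.0338) and Sox10 (0.61, 0.0295), with 7.35% of all genes passing. With cerebellum WT library 2 also left out, Mog, Mobp and Sox10 passed, with 6.71% of all genes.

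The 2 high libraries ran through the whole set. All 9 genes were highest in library B among the WT cortices, where 36.5% of all genes were, and all 9 were highest in library 2 among the WT cerebella, where 37.7% of all genes were. Except for Olig2 and Pdgfra in the cortex, the SCA1 KI groups were tighter than the WT groups. The coefficient of variation of Mbp was 25.8% in cerebellum WT and 4.52% in cerebellum SCA1 KI, and 33.2% in cortex WT and 8.59% in cortex SCA1 KI. Cnp had the smallest one in the cerebellum, 1.25% in SCA1 KI against 6.77% in WT. Pdgfra varied least of the 9 in cortex WT, at 3.98%. Among the SCA1 KI cortices library F was highest for 7 genes (29.6% of all genes) and library A lowest for 8, and among the WT cerebella library 4 was lowest for 8.

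**Figure D4:**
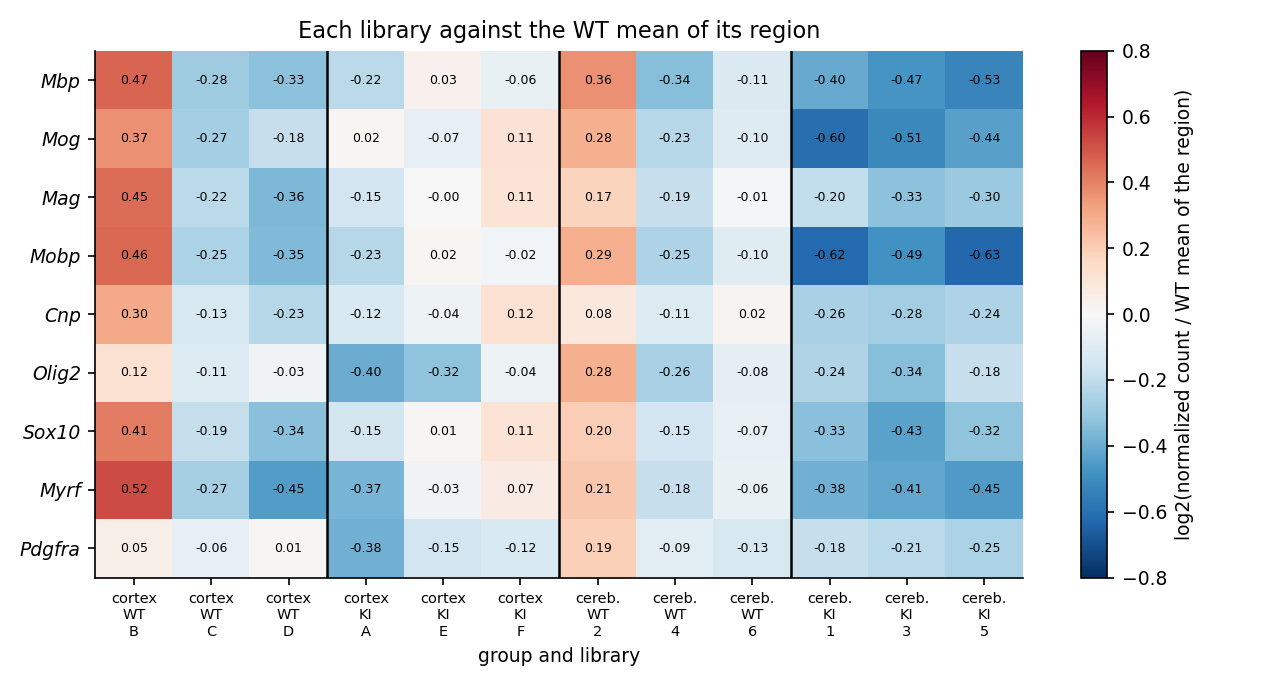
Each library's normalized count relative to the WT mean of its region (colour and printed value, log2 ratio) for the 9 genes, by group and library. Libraries B and 2 are above their WT mean for all 9 genes, and the 3 SCA1 KI cerebellum libraries are below it for all 9.

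Once the group means were removed, the deviations of the genes from library to library were shared. Over the 12 libraries Pearson's r of these deviations was 0.832 to 0.986 (median 0.933) for the 21 pairs among Mbp, Mog, Mag, Mobp, Cnp, Sox10 and Myrf. It was 0.473 to 0.798 (median 0.662) for the 15 pairs with Olig2 or Pdgfra. All 9 genes were read from the same libraries, among which B and 2 stood high for each gene, so these correlations are given as a description.

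Among the genes most like the 5 myelin genes were other genes of oligodendrocytes. Over the 12 libraries the mean of the scaled log2 values of Mbp, Mog, Mag, Mobp and Cnp was closely followed by Ermn, Gpr37, Fa2h and Gjb1 (r from 0.991 to 0.986). For the deviations from the group means the near ones included Efnb3, Cers2, Gjb1 and Cldn11 (r from 0.976 to 0.972). Among the other members Myrf followed the levels of the 5 genes at r = 0.987 and Sox10 at 0.832, while Olig2 (−0.335) and Pdgfra (−0.762) did not follow them. The levels of Pdgfra were most like Tanc2, Dscam, Epha6, Rnf157 and Dgkb (r from 0.995 to 0.992). The 12 libraries span both regions, so the correlations of levels include the difference between cortex and cerebellum.

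Other genes of the lineage were followed in 5 lists chosen with earlier results of these data known. Of 30 genes of mature oligodendrocytes and myelin 29 were tested, the symbol of the other standing as a date in the table. In WT mice 27 of the 29 were lower in cortex than in cerebellum (median LFC −1.10, all genes 0.00), against 30.7% of all genes lower. In the cerebellum 5 of the 29 were lower in SCA1 KI and none higher, against 4.44% of all genes lower, and 28 of 29 had an LFC below 0 (median −0.39, all genes −0.01). The genotypes did not overlap for 24 of them, against 17.5% of all genes lower in this way.

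The 5 were Car2, Gal3st1, Mal, Opalin and Cldn11. Car2, a carbonic anhydrase of oligodendrocytes, read 9957, 8047 and 8045 in cerebellum WT and 6514, 6533 and 6928 in cerebellum SCA1 KI, an LFC of −0.38 (limma adjusted p = 0.0133). Gal3st1, which makes the myelin lipid sulfatide, read 528, 358 and 416 in WT and 271, 242 and 288 in SCA1 KI (−0.68, limma adjusted p = 0.0158). Opalin, a membrane protein of mature oligodendrocytes, read 772, 462 and 516 in WT and 259.5, 282 and 380.5 in SCA1 KI (−0.91, limma adjusted p = 0.0302). For these 3 genes every SCA1 KI library lay below every WT library. Mal, a proteolipid of compact myelin, had an LFC of −0.55 (limma adjusted p = 0.0204), and Cldn11, the tight junction protein of the sheath, one of −0.61 (adjusted p = 0.0412).

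Enpp2, an abundant gene of the list and also a gene of the choroid plexus, read 22299.6, 47150.2 and 17755 in WT and 6007, 19345 and 46906 in SCA1 KI, an LFC of −0.59 (adjusted p = 0.657), while the 6 choroid plexus genes summed to 1393 to 75977 over the cerebellar libraries. The count of 5 rested on single libraries: none of the 29 passed without SCA1 KI library 1 or 3, 1 passed without WT library 2, and 3 passed without SCA1 KI library 5 or WT library 6. In those fits the median of the list stayed below 0, and without WT library 2 it was −0.24.

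In the cortex Car2 alone of the 29 was lower in SCA1 KI, with 6411, 5960.1 and 6482 in WT and 5087, 4803 and 5085 in SCA1 KI (−0.33, limma adjusted p = 0.0107), and the median of the list was 0.02. Enpp2 had an LFC of −0.50 (limma adjusted p = 0.583). Without WT library B, 4 of the 29 were higher in SCA1 KI, against 4.66% of all genes in that fit, and the median was 0.19. For the difference between the regions none of the 29 passed, against 8.15% of all genes, 9 had an unadjusted p under 0.05 and all 29 lay above 0 (median 0.36). edgeR called none of the 29 and DESeq2 called 1. Without cortex WT library B 11 passed, against 7.35% of all genes.

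Of 18 genes of precursors and early oligodendrocytes 8 were lower in cortex SCA1 KI and none higher (median LFC −0.28, all genes −0.003), against 10.8% of all genes lower. Megf11, a receptor-like protein, read 804, 657 and 774 in cortex WT and 185, 397 and 427 in cortex SCA1 KI (−1.23, limma adjusted p = 0.00324). Ptprz1, a receptor phosphatase of precursors and astrocytes, read 11092, 10206 and 10907 in WT and 6730.0, 8384 and 8798 in SCA1 KI (−0.44, adjusted p = 0.00308). Both had SCA1 KI libraries wholly below the WT ones.

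Xylt1 (−0.57, limma adjusted p = 0.00522), an enzyme of proteoglycan synthesis, was lower too. Vcan, Sox6, Gpr17 and Neu4 were also among the 8. The list is less particular to the lineage than the mature one, and several of its genes are also used by neurons or astrocytes. Of 8 astrocyte genes 6 were lower in cortex SCA1 KI, against 10.8% of all genes, with a summed level of 298579 to 300844 in WT and 153443 to 216248 in SCA1 KI, and their part in the lower values of shared genes such as Ptprz1 was not tested. The count of 8 was 3 without WT library B, 4 without SCA1 KI library A and 5 without WT library C. In the cerebellum none of the 18 passed in limma (median −0.22), 6 were lower and 1 higher at an unadjusted p under 0.05, and edgeR and DESeq2 called 2 lower each. The difference between the regions passed for none of the 18 (median −0.05), and 2 lay below 0 and 2 above 0 at an unadjusted p under 0.05.

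Of 18 genes of transcriptional control 3 were lower in cerebellum SCA1 KI, against 4.44% of all genes, and these held the largest LFC of the 5 lists in either genotype comparison. Tcf7l2, a Wnt effector that is used by maturing oligodendrocytes and strongly by thalamic neurons, read 2404, 1480.4 and 2051 in cerebellum WT and 223, 210.1 and 249 in cerebellum SCA1 KI (−3.09, standard error 0.29, limma adjusted p = 5.19e-05). In the cortex it read 208, 177 and 182 in WT and 108, 188 and 310.0 in SCA1 KI, and the regions' difference passed (3.06, adjusted p = 0.000922). Its cerebellum WT libraries held the highest values of the 12, in the group with the highest summed level of the thalamus, midbrain and brainstem genes, whose part in it was not tested.

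Hes5, a Notch target that holds back differentiation, was also lower in cerebellum SCA1 KI (−1.08, limma adjusted p = 0.00276) at low counts, 99.5, 68.4 and 74.5 in WT against 41.3, 37.8 and 32.9 in SCA1 KI. Id4, an inhibitor of basic helix-loop-helix factors, had an LFC of −0.43 (adjusted p = 0.0229) there. In the cortex Id2 (−0.42, limma adjusted p = 0.00335), Sox5 (−0.26, 0.0214) and Id4 (−0.35, 0.0308) were lower and the histone deacetylases Hdac1 (0.31, 0.00598) and Hdac2 (0.26, 0.00949) higher. These 3 and 2 of 18 compare with 10.8% of all genes lower and 4.82% higher. Smarca4, the remodelling ATPase and the most abundant gene of the list, had an LFC of −0.30 (limma adjusted p = 0.066) in the cortex and −0.002 in the cerebellum. The median of the list was −0.04 in the cortex and −0.01 in the cerebellum. The counts in the cortex fell to 1 lower without SCA1 KI library A, and to 1 higher without WT library B or D.

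Of 15 genes of signals and receptors 2 were lower in cortex SCA1 KI and 1 in cerebellum SCA1 KI, shares near the 10.8% and 4.44% of all genes lower there, so that the counts are no result about the list. Lingo1, which restrains differentiation and is carried largely by neurons, read 18627, 19359 and 17228 in cortex WT and 8268, 10124 and 7823 in cortex SCA1 KI (−1.08, limma adjusted p = 9.66e-05). In the cerebellum it read 1902, 1298 and 1596 in WT and 1564, 1428 and 1459 in SCA1 KI, and the regions differed (−0.99, adjusted p = 0.00422). The insulin-like growth factor receptor Igf1r had an LFC of −0.34 in the cortex (limma adjusted p = 0.0213), a call that was lost without SCA1 KI library A or WT libraries B or C in turn, where 1 gene of the list was called. Il33, a nuclear cytokine of oligodendrocytes and astrocytes, read 2899.6, 1852 and 2084 in cerebellum WT and 1268, 1418 and 1540.3 in cerebellum SCA1 KI (−0.67, adjusted p = 0.016), and the list had no call there without SCA1 KI library 1 or 3. Fyn, a kinase that relays axonal signals, had an LFC of 0.018 in the cortex and 0.18 in the cerebellum. The median of the list was −0.13 in the cortex and −0.08 in the cerebellum.

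Genes of the node and paranode, where axon and myelin meet, were lower in the cortex: 10 of 16 in SCA1 KI and none higher, against 10.8% of all genes lower and 4.82% higher (median −0.37, all genes −0.003). The axonal potassium channels Kcna2 (22223, 22182 and 19865 in WT, 10959.8, 13706 and 12445 in SCA1 KI) and Kcna1 (14694, 14166 and 11983 in WT, 5965, 8188 and 7413 in SCA1 KI) had LFCs of −0.80 and −0.93 (limma adjusted p = 5.27e-05 and 7.26e-05). The nodal sodium channel Scn8a (−0.65, limma adjusted p = 0.000163) and the paranodal axonal protein Cntnap1 (−0.48, 0.000556) were lower as well. Ank2, the most abundant of the list, had an LFC of −0.35 (0.0315) there. The proteins named here lie in the axon and are made by neurons, whereas the list as a whole also holds glial proteins. Of 6 genes of cortical neurons 2 (Slc17a7 and Rorb) were lower too, against 10.8% of all genes. The summed level of the 6 was 82858 to 84533 in WT and 56224 to 66239 in SCA1 KI. The part of these neuronal genes in the counts was not tested.

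In the cerebellum 1 of the 16 was lower, Kcnab2, a subunit of the same potassium channels (−0.49, limma adjusted p = 0.0271), and the median was −0.03, so that the share called was near the 4.44% of all genes lower. That call was lost without SCA1 KI library 1, 3 or 5 or WT library 6. Kcna2 read 32315, 27701 and 29478 in WT and 29578, 28438 and 29527 in SCA1 KI, an LFC of −0.029. The regions differed for 6 of the 16, all with the lower LFC in the cortex, against 4.89% of all genes. Kcna2 (−0.77), Kcna1 (−0.92), Scn8a (−0.62) and Cntnap1 (−0.52) had the smallest adjusted p among them in limma, from 0.00197 to 0.00639.

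**Figure D5:**
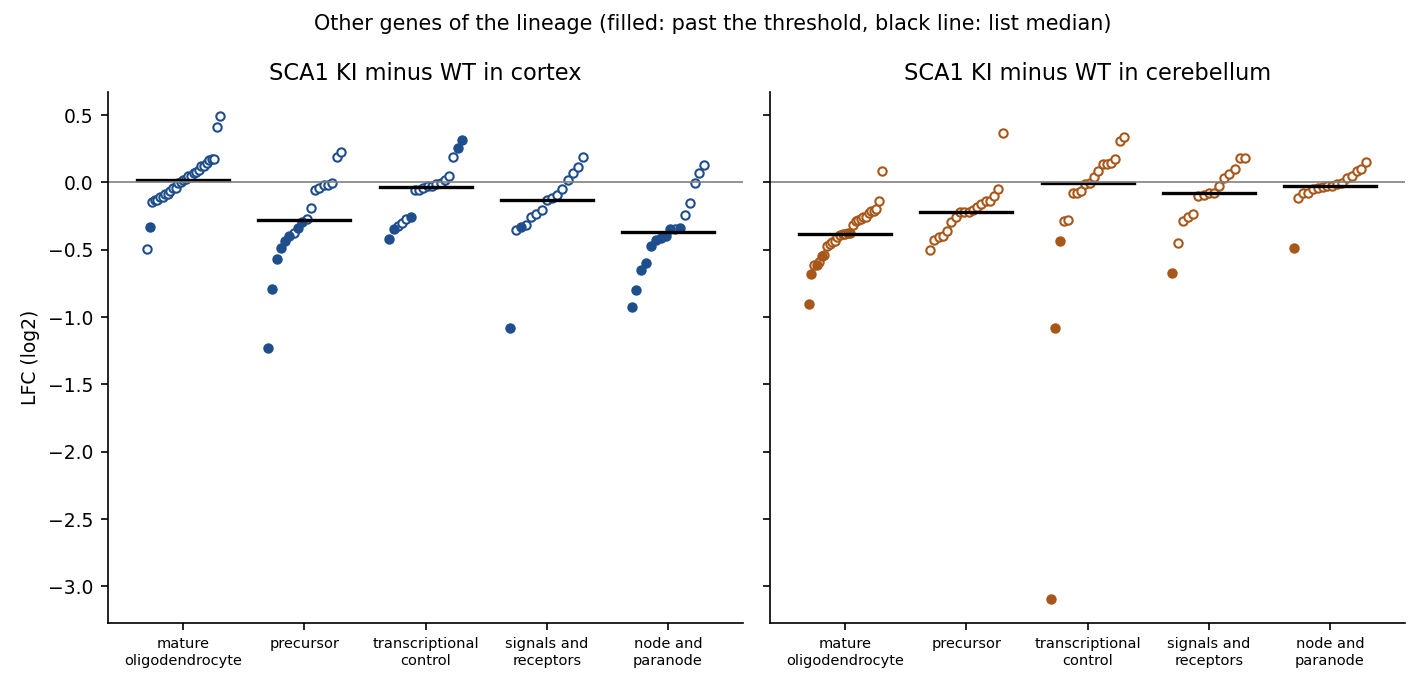
LFC of SCA1 KI against WT (vertical axis, log2) for each tested gene of the 5 lists, in cortex on the left and cerebellum on the right. Filled points passed the threshold and black lines are list medians. The mature list lies around 0 in the cortex and mostly below 0 in the cerebellum, while most genes of the precursor and of the node and paranode lists lie below 0 in the cortex.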

How the data were processed

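Cortex and cerebellum of SCA1 KI and WT mice were profiled by poly-adenylated RNA sequencing in 12 libraries, 3 per group. Per the submitters' processing notes and the paper's methods, the authors aligned paired-end reads to mm10 with STAR, used featureCounts for gene counts and DESeq2 for normalization (versions and strand setting not given in the sources used here). The deposited signal is a normalized count, a gene's reads over the size factor of that library. Whole reads were recovered for 100% of values in every library (tolerance 0.05 read).

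Of 15759 entries, 15603 matched the annotation by symbol, 24 had symbols turned into dates, and 390 with a mean under 10 were left out. limma 3.58.1 (R 4.3.3, trend on the mean) was fitted on log2(normalized count + 1) with 4 group means. A pseudocount understates the LFC of low genes. Comparisons were SCA1 KI against WT in each region, their difference, and cortex against cerebellum in each genotype. Adjusted p are Benjamini-Hochberg values over 15369 genes. Scripts were tested on simulated data. Nothing in the labels says more of the replicates than that they are biological. In the main fit a p-value sets a difference of group means against the spread between these libraries, pooled over the 4 groups.

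The 9 genes and all lists were chosen with earlier results of these data known. Genes named were the 9, the up to 4 called genes with the smallest p and the 2 most abundant of each of 5 lineage lists, and the 5 genes most like the myelin genes or Pdgfra, except for some that are not reported here. Cldn11, Vcan, Sox6, Gpr17, Neu4, Id4 in the cortex and the marker genes were named after their values were seen. The 10 marker lists were Schwann cells, astrocytes, microglia, vessels, choroid plexus, blood, striatum, thalamus with midbrain and brainstem, cortical neurons and cerebellar neurons. Alternatives were edgeR 4.0.16, DESeq2 1.42.0, pseudocounts of 0.5 and 5, no filter or a minimum mean of 100, LFC limits of 0 and 1, each region alone, centring on the median, removal of trends on length and GC, and leaving out each library. Leaving out libraries B and 2 together was added after seeing the data. Mbp had no promoter sequence shown.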

Additional observations from a re-analysis of the deposited data

Results flagged for a closer look

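The genotype effect differed between cortex and cerebellum by the test of that difference itself for 8 genes named from the lists, none of them among the 9. With the LFC in the cortex minus that in the cerebellum, the values were 3.06 for Tcf7l2 (limma adjusted p = 0.000922) and 1.07 for Hes5 (adjusted p = 0.0173), for which the cerebellar LFC was the lower one. Those with the lower LFC in the cortex were Lingo1 at −0.99 (limma adjusted p = 0.00422), Kcna1 at −0.92 (0.0022), Kcna2 at −0.77 (0.00197), Scn8a at −0.62 (0.00524), Cntnap1 at −0.52 (0.00639) and Sox5 at −0.34 (0.0475). Sox5 lay nearest the threshold. The groups hold 3 libraries each, too few for a test of single libraries as outliers.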

How the results depend on the processing

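No paired analysis was possible because the labels do not say whether a cortex and a cerebellum came from the same mouse. The deposited columns also carry letters and numbers of their own and not the replicate numbers of the labels.

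For SCA1 KI against WT in the cerebellum, 0 of the 9 genes passed, and the LFC of each stayed below 0 under every alternative. DESeq2 called 2, each region fitted on its own 3, and the fit without libraries B and 2 together 2. Leaving out 1 library gave 0 to 2, with 2 only without cortex WT library B. For the difference between the regions the count was 3 without libraries B and 2 together, and 0 to 5 when 1 library was left out. The count of 8 for cortex against cerebellum in SCA1 KI was 0 with a limit of 1 on the absolute LFC and 7 to 8 when 1 library was left out. In WT it was 9, and 7 to 9, and edgeR did not call Olig2.

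Values near 0 changed sign. In the cortex genotype comparison DESeq2 gave −0.012 for Mag, −0.010 for Cnp and −0.005 for Sox10. Removing trends on length and GC gave 0.008 for Mbp, −0.040 for Mog and 0.10 for Myrf. Leaving out libraries B and 2 together gave 0.22 for Mbp, 0.22 for Mobp and 0.25 for Myrf. In the difference between the regions DESeq2 gave 0.013 for Olig2 and 0.004 for Pdgfra, edgeR 0.032 and 0.020, and the trend removal 0.081 for Pdgfra. Leaving out 1 library moved the cortex LFC of Mbp between −0.17 and 0.22, Mog between −0.07 and 0.25, Mag between −0.13 and 0.27, Mobp between −0.18 and 0.22, Cnp between −0.10 and 0.17, Sox10 between −0.12 and 0.25 and Myrf between −0.24 and 0.25. It moved the regions' difference of Olig2 between −0.16 and 0.11 and of Pdgfra between −0.109 and 0.072, and Sox10 between the regions in SCA1 KI between −0.12 and 0.008. The causes were not tested beyond the construction of each alternative. The values of the 9 genes rested on 506 or more reads each, and 3 libraries per group limited the precision.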

Other observations

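The remaining marker lists describe other cells in the same dissections, and their counts compare with 10.8% of all genes lower and 4.82% higher in cortex SCA1 KI and 4.44% lower and 0.917% higher in cerebellum SCA1 KI. Of 8 microglial genes none was called in the cortex (median LFC −0.08, limma, none at an unadjusted p under 0.05) and 1 was lower in the SCA1 KI cerebellum, P2ry12 (−0.46, limma adjusted p = 0.0267), a receptor of resting microglia. None of 10 vascular genes was called in either region by limma, with 2 lower at an unadjusted p under 0.05 in the cortex and none in the cerebellum (medians −0.20 and −0.04). None of 6 choroid plexus genes was called in either region, with none at an unadjusted p under 0.05. Of 4 blood genes the table held 1, Alas2, at −0.76 in the cortex (limma adjusted p = 0.0364) and −0.54 in the cerebellum (not called).

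Of 6 striatal genes 1 was lower in each region, Ppp1r1b in the SCA1 KI cortex (−1.21) and Drd1 in the SCA1 KI cerebellum (−1.52). Of the 4 measured Schwann cell genes 1 was lower in the SCA1 KI cortex, Egr2 (−1.65, limma adjusted p = 0.0165), which neurons use as an activity gene, and none in the cerebellum, with 1 lower at an unadjusted p under 0.05. Of 8 genes of cerebellar neurons 2 were lower in the SCA1 KI cortex (Calb1 and Car8) and none passed in the cerebellum, with 1 lower at an unadjusted p under 0.05. Of 6 genes of cortical neurons 1 was higher (Tbr1) and 1 lower (Rorb) in the SCA1 KI cerebellum. Genes in this section were named after their values were seen.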
